A study of Mus musculus with 6 samples.

Results

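The genes described here encode the machinery that targets, threads, cleaves and glycosylates proteins at the endoplasmic reticulum (ER) membrane. The list held 34 genes in 5 complexes, named by gene symbol and grouped by complex: 8 genes of the signal recognition particle (SRP) and its receptor, 8 of the Sec61 channel and its partners, 4 of the translocon-associated protein (TRAP) complex, 5 of the signal peptidase complex and 9 of the oligosaccharyltransferase. Of these, 32 had a probe set that names 1 gene, and all 32 were among the 11424 genes that were tested out of 19938 named genes. Srp54a and Sec61g were present only on probe sets that name several genes and are not reported.

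Many proteins that are secreted or sit in a membrane carry a hydrophobic stretch, often at their start, that SRP recognises on the ribosome. SRP hands the ribosome to its receptor on the ER, the growing chain enters the Sec61 channel, and TRAP helps some chains to insert. Inside the ER the signal peptidase cuts the leading peptide off, and the oligosaccharyltransferase moves a ready-made sugar tree from the lipid dolichol onto asparagine residues of the chain.

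The samples were 6 cultures of N2A cells, a mouse neuroblastoma line grown in serum-containing medium. The 3 control cultures were transiently transfected with 1.5 µg of a non-targeting hairpin vector, and the 3 Pax6 knockdown cultures with the same amount of a hairpin vector against Pax6, which encodes a transcription factor of brain and eye development. Hairpins were driven by the U6 promoter in a plasmid that also carries green fluorescent protein under a CMV promoter, as the study's methods describe, and RNA was taken 3 days later from the whole culture without selecting transfected cells in any step the labels name. The labels give the knockdown vector only as directed against Pax6, and effects of a hairpin on other transcripts cannot be told apart from those of reduced Pax6. Each value is a log2 probe set signal from a whole-transcript mouse gene array, differences are given as knockdown minus control (n = 3 arrays in each group), and p-values are from limma with Benjamini-Hochberg adjustment over all tested genes. In such cultures fewer cells expressing a gene and less transcript per cell cannot be told apart.

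Pax6 itself was lower on every knockdown array, with log2 values of 8.79, 8.82 and 8.81 in controls and 8.48, 8.30 and 8.50 in knockdowns (log2 fold change -0.38, SE 0.071, adjusted p = 0.0382). That call was lost when control replicate 1, 2 or 3 or knockdown replicate 3 was left out, with adjusted p from 0.120 to 0.180. Correlations between arrays lay between 0.987 and 0.997. Of 9 sympathetic neuroblast markers on the array, all 9 were in the tested range and 3 fell (4 with the replicate block explained below), namely Dbh, Isl1 and Chga. Among all tested genes 3.88% were called lower, and 8.91% with the block. The summed log2 signal of the 9 was 101.2 to 101.7 in controls and 98.8 to 99.8 in knockdowns. All 4 astrocyte and 5 leukocyte markers lay below the array medians everywhere, as did 3 of 5 fibroblast and 3 of 4 epithelial markers. The other 6 neuroblast markers were not called without the block, and 3 of them (Phox2a, Gata2 and Stmn2) had log2 fold changes above 0. Dbh had the lowest, -1.08, so the sum does not describe the 9 alike. The part of the 3 that fell in the results below was not tested.

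The TRAP subunit genes Ssr2 and Ssr4 and the channel partner gene Tram1 fell at a false discovery rate (FDR) of 10%, by 0.43, 0.36 and 0.25 on the log2 scale. In linear signal, Ssr2 fell by 25.8%, Ssr4 fell by 22.1% and Tram1 fell by 16.2%. No gene of the 32 rose by limma, and at an unadjusted p under 0.05 there were 13 lower and 0 higher, where 9.45% of all tested genes were lower and 9.34% higher at that p. The other 29 did not pass, with log2 fold changes from -0.29 to 0.16. The 3 that fell are 9.38% of the tested members, beside 3.88% of all tested genes called lower and 2.79% called higher.

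Control and knockdown arrays carry the same replicate numbers, and no label says what these mark. The replicate number was taken up as a block because of these same data. Deviations from the group mean correlated at 0.574, 0.323 and 0.230 for arrays of 1 number. Control 3 with knockdown 2 gave 0.178. Such centring makes some pairs of arrays correlate above 0, so the pairing itself was not tested. With the replicate number as a block, 10 of the 32 were lower at 10% FDR and 0 were higher. These were Ssr2, Ssr4, Tram1, Sec61a1, Sec63, Ssr1, Ddost, Dad1, Tusc3 and Magt1. They make up 31.3% of the tested members, where the blocked fit called 8.91% of all tested genes lower and 8.96% higher. The calls depended on the arrays used. Without control replicate 2 or knockdown replicate 3, none of the 32 passed in the unblocked fit. Of all tested genes, only 0.376% and 0.429% were called lower there. In each of these fits 7 of the 32 were lower and 0 higher at an unadjusted p under 0.05, beside 7.16% and 7.82% of all tested genes lower. Without control replicate 1 there were 5 lower and 1 higher, beside 7.63% and 8.26%. At 10% FDR, only Ssr2 and Ssr4 passed without control replicate 1 (1.16% of all tested genes called lower). Only Ssr2 passed without control replicate 3 (1.12%). Ssr2, Ssr4, Tram1 and Magt1 passed without knockdown replicate 1 (3.89%).

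The members were chosen with earlier results of these data known, so their shares here and above describe the list and test nothing. The members also had high signals, with a median percentile of 90.2 among tested genes and 24 above the 75th percentile. Shares of all tested genes therefore come mostly from genes of lower signal. With a filter at the 75th percentile of each array, 9 of 31 members were called lower, beside 8.64% of all genes kept. At an unadjusted p under 0.05 there were 14 lower and 1 higher, beside 12.7% and 15.1%. In direction, 27 of the 32 (84.4%) had a log2 fold change below 0, against 44.5% of all tested genes. The median was -0.13, while that of all tested genes was 0.02. Without knockdown replicate 2 the members' median was -0.07, and over the 14 alternative settings 23 to 27 members lay below 0. In 13 of the 32 (40.6%) every knockdown array lay below every control array, and in 2 (6.25%), Srp9 and Tram2, every knockdown array lay above. Among all tested genes these arrangements occurred in 11.7% and 13.9%. Comparing arrays by replicate number, 18 members (56.3%) were lower in all 3 pairs, against 21.3% of tested genes.

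**Figure D1:**
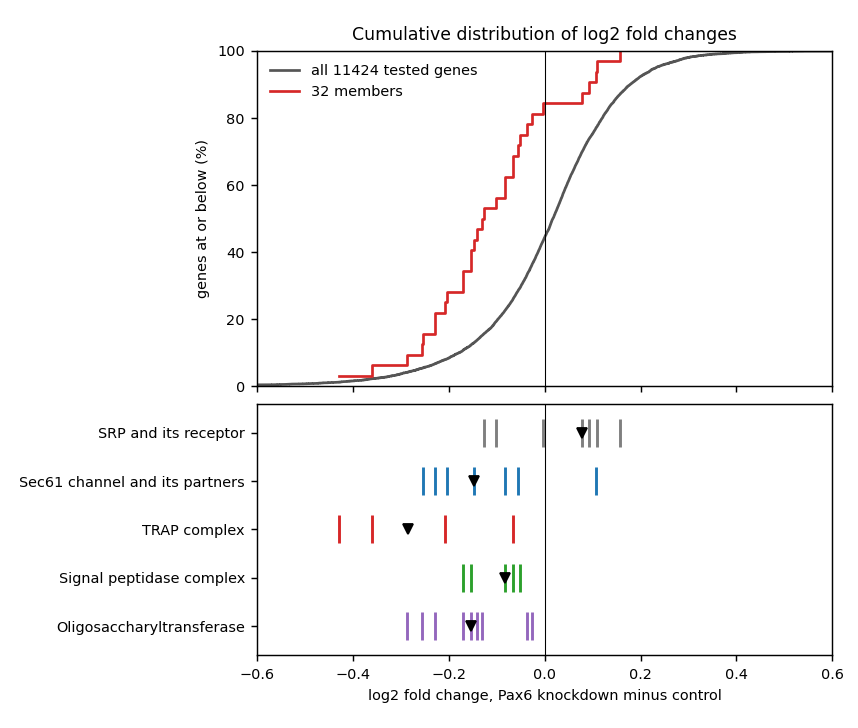
Upper panel: cumulative share of genes (percent, vertical axis) at or below each log2 fold change (horizontal axis, knockdown minus control) for all 11424 tested genes and for the 32 members, with changes beyond the axis limits not drawn. Lower panel: a bar for each member and a triangle for the median of its complex. The members' curve lies to the left, with 84.4% below 0 against 44.5%, and the TRAP median lies farthest left at -0.28.

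The 5 complexes did not lie alike. Their median log2 fold changes were 0.08 for SRP and its receptor, -0.15 for the Sec61 channel and its partners, -0.28 for TRAP, -0.08 for the signal peptidase and -0.15 for the oligosaccharyltransferase. Averaged over its genes and set to the control mean, TRAP was lower by 0.25, 0.36 and 0.19 in the pairs of replicates 1, 2 and 3. The oligosaccharyltransferase was lower by 0.14, 0.21 and 0.12, and the Sec61 group by 0.11, 0.19 and 0.07. For each of these 3 groups of genes all knockdown arrays lay below all control arrays. The SRP mean was 0.06 higher, 0.04 lower and 0.07 higher in the same pairs, and its control and knockdown arrays overlapped. No test of the difference between complexes was made.

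**Figure D2:**
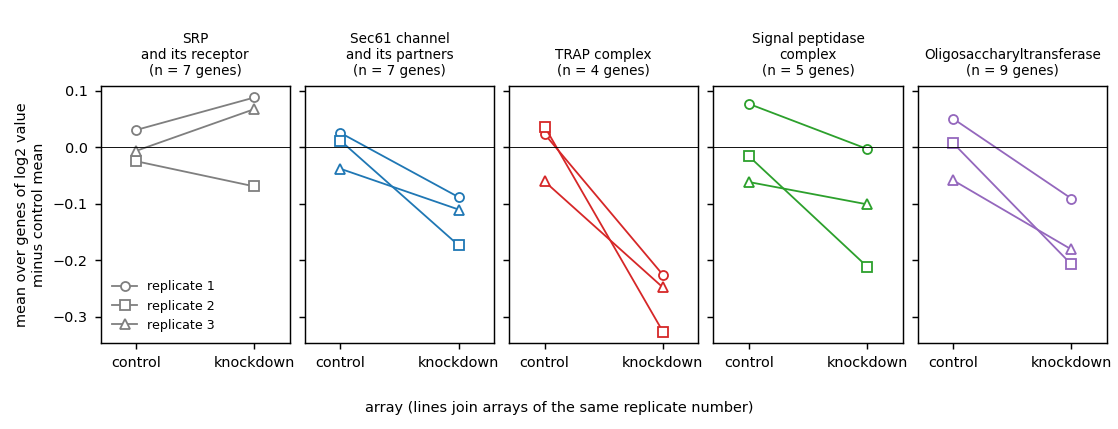
Mean over the genes of each complex of the log2 value minus that gene's control mean (vertical axis), for each array; lines join the control and knockdown arrays of 1 replicate number. All 3 lines descend for the Sec61, TRAP, signal peptidase and oligosaccharyltransferase genes, while the SRP lines go up in 2 pairs and down in 1.

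SRP is a ribonucleoprotein of an RNA and several proteins, of which the large subunits Srp68 and Srp72 bind the RNA together, Srp9 and Srp14 form the part that slows translation, and Srp19 helps in assembly. None of the 7 measured genes of SRP and its receptor passed the test in either fit, and 0 had an unadjusted p under 0.05. Of all tested genes, 3.88% were called lower and 2.79% higher, and 8.91% and 8.96% with the block. At that unadjusted p 9.45% were lower and 9.34% higher. With so few genes, counts of 0 are close to these shares and do not set the group apart. Srp72 had the lowest p of the group. Its log2 values were 12.00, 11.94 and 11.87 in controls and 12.16, 11.99 and 12.13 in knockdowns (log2 fold change 0.16, 95% confidence interval -0.01 to 0.32, adjusted p = 0.284), so the groups overlapped. Srp9, which showed no overlap between groups, had values of 11.08, 10.99 and 11.07 against 11.18, 11.08 and 11.15 (log2 fold change 0.09, adjusted p = 0.480). Its other probe set gave 0.08. Srp19 gave nearly the same values in both groups, at 7.98, 8.01 and 8.26 against 7.97, 8.02 and 8.25, each control array being close to the knockdown array of its own number. Srp68 had a log2 fold change of 0.08 and Srp14 of -0.10. The receptor is built of Srpr, which binds SRP, and Srprb, which anchors it in the membrane. Their log2 fold changes were 0.11 and -0.13, and that of Srpr rested on knockdown replicate 1, being -0.03 without it.

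The Sec61 channel is made of an alpha subunit that forms the pore, encoded by Sec61a1 or its paralogue Sec61a2, and the small beta and gamma subunits. Sec62 and Sec63 assist the channel for chains that arrive after translation, and Sec63 also recruits the chaperone BiP. Tram1 encodes a membrane protein next to the channel that contacts entering signal sequences. It fell, with log2 values of 12.73, 12.78 and 12.74 in controls (mean 12.75 ± 0.029 SD, n = 3) and 12.51, 12.47 and 12.51 in knockdowns (12.50 ± 0.022 SD, n = 3), which gave a log2 fold change of -0.25 with SE 0.056 (limma adjusted p = 0.0571). The 2 groups lay far apart relative to their own spread. When 1 array was left out, Tram1 passed only without knockdown replicate 1 or 2, and its adjusted p reached 0.235. It was also not called when genes of low value were kept in the fit (adjusted p = 0.144).

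Sec61a1 had values of 13.31, 13.44 and 13.33 against 13.17, 13.15 and 13.16 (log2 fold change -0.20, adjusted p = 0.120, with the block 0.0677). Sec63 had 11.77, 11.64 and 11.61 against 11.49, 11.38 and 11.47 (log2 fold change -0.23, adjusted p = 0.119, with the block 0.0479). For both genes all knockdown arrays lay below all controls, and the call was made only with the block. Sec62 overlapped between groups (log2 fold change -0.15, adjusted p = 0.458), as did Sec61a2 (-0.08, adjusted p = 0.622). Sec61b had the smallest change of the group. Its values were 9.97, 9.98 and 9.97 in controls and 9.81, 9.93 and 10.00 in knockdowns, a log2 fold change of -0.06 (adjusted p = 0.737), and its other probe sets gave -0.04 and -0.05.

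**Figure D3:**
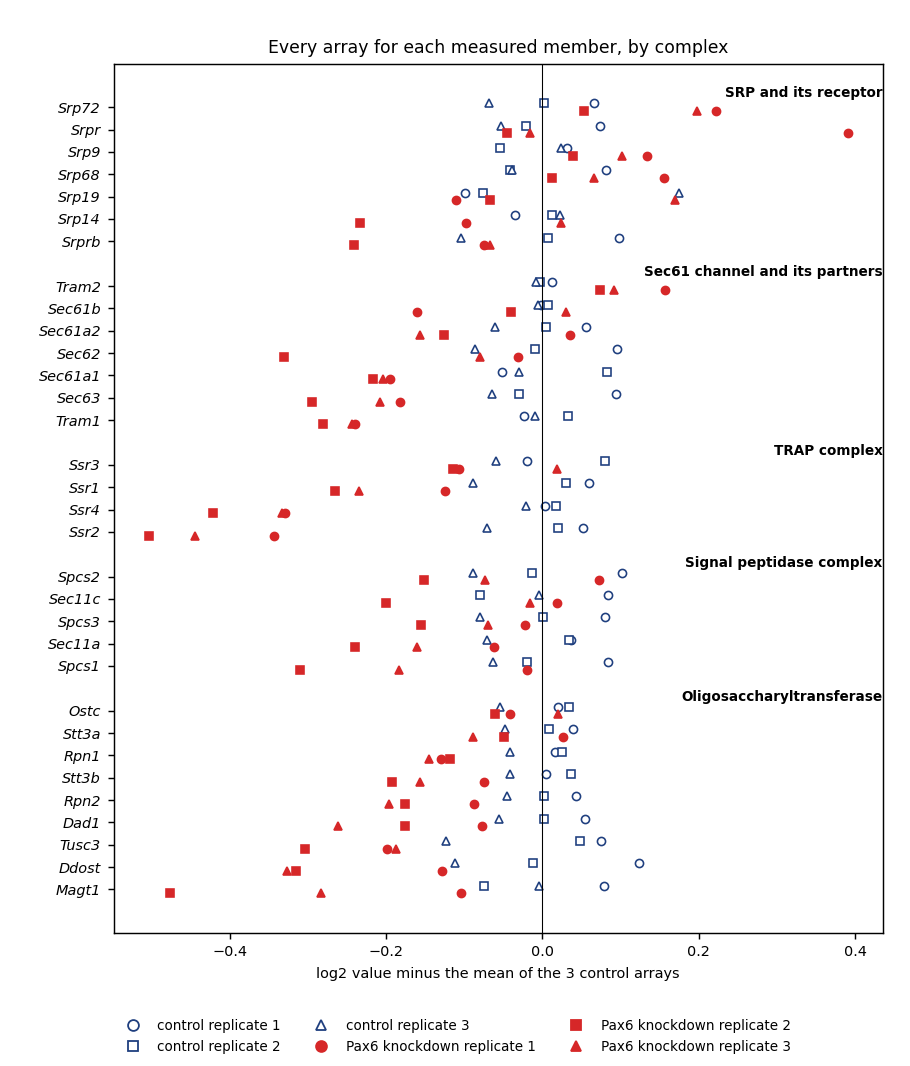
Deviation of each log2 value from the control mean of its gene (horizontal axis) for each of the 32 measured members, grouped by complex; open symbols are control arrays, filled symbols Pax6 knockdown arrays, and the shape gives the replicate number. In 13 members all filled symbols lie left of the open ones, with the widest gaps for Ssr2, Ssr4 and Tram1. In 2, Srp9 and Tram2, they lie right of them.

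The TRAP complex lies beside the channel and is built of Ssr1 (alpha), Ssr2 (beta), Ssr3 (gamma) and Ssr4 (delta). Ssr2 had the lowest log2 fold change of all 32 genes. Its log2 values were 13.20, 13.17 and 13.08 in controls (13.15 ± 0.063 SD, n = 3) and 12.81, 12.65 and 12.71 in knockdowns (12.72 ± 0.081 SD, n = 3), which gave a log2 fold change of -0.43 with SE 0.068 (limma adjusted p = 0.0241). Ssr4 followed, with 11.76, 11.77 and 11.73 in controls (11.75 ± 0.020 SD, n = 3) and 11.43, 11.33 and 11.42 in knockdowns (11.39 ± 0.053 SD, n = 3), which gave a log2 fold change of -0.36 with SE 0.058 (limma adjusted p = 0.0251). The highest knockdown array of each gene lay well below the lowest control array. Ssr1 had 12.81, 12.78 and 12.66 against 12.62, 12.48 and 12.51 (log2 fold change -0.21, adjusted p = 0.154, with the block 0.0634), also without overlap.

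Ssr3 differed from the other TRAP genes in that its groups overlapped. Its values were 11.97, 12.07 and 11.93 against 11.88, 11.87 and 12.01, and the log2 fold change was -0.07 (95% confidence interval -0.23 to 0.09, adjusted p = 0.689). Over 14 alternative settings, Ssr2 passed 10% FDR in 12 and Ssr4 in 11, with log2 fold changes from -0.47 to -0.39 and from -0.38 to -0.33. Leaving out control replicate 2 or knockdown replicate 3 ended the call of Ssr2, and that of Ssr4 ended also without control replicate 3, with adjusted p up to 0.145 and 0.150.

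Ssr4 starts next to another gene. In the RefSeq promoter table of assembly GRCm38.p6, its window at chrX:73786773-73787072 on the plus strand overlaps that of Idh3g, which encodes a subunit of the mitochondrial isocitrate dehydrogenase and is read from the minus strand. The window is shown because the genes at its ends gave differences of opposite sign. It runs from 250 bases before to 50 bases after the Ssr4 start, and capitals mark the 125 bases between the start sites of Idh3g and Ssr4.
Ssr4: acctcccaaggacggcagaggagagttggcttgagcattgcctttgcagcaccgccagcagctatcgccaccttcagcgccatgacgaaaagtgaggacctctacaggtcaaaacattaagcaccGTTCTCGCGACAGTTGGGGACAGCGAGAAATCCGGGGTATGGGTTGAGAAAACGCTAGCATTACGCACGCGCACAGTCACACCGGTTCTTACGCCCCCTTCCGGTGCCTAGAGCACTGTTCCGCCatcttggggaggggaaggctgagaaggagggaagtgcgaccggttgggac
Idh3g had log2 values of 13.00, 13.03 and 13.04 in controls and 13.06, 13.13 and 13.11 in knockdowns, a log2 fold change of 0.08 (adjusted p = 0.524). All its knockdown arrays lay above all controls, while all those of Ssr4 lay below. The change of Ssr4 minus that of Idh3g was -0.44 (95% confidence interval -0.58 to -0.30; exact two-sided permutation p = 0.1, the smallest that 3 against 3 arrays allow, and 0.15 after adjustment over 3 such pairs). Ssr4 was already called lower and the pair was chosen after its values were seen. The interval and p therefore describe the pair and test nothing. Intervals for pairs of genes are from a t distribution with the pooled SD of both groups, not from the permutation test.

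Of 25 members with a window in that table, 8 overlapped a window on the other strand, as did 11.9% of 27025 genes. The neighbour was tested for 3 measured members. These pairs were chosen after their values were seen, so their intervals and p describe them and test nothing. Dad1, of the oligosaccharyltransferase, had a log2 fold change of -0.17, and its neighbour Abhd4, a lipase gene, 0.11 (adjusted p = 0.330), with values of 9.91, 9.91 and 9.90 in controls and 10.07, 9.98 and 10.01 in knockdowns. The difference of changes was -0.28 (95% confidence interval -0.43 to -0.14; exact permutation p = 0.1, adjusted 0.15). Srpr and Foxred1 had log2 fold changes of 0.11 and -0.02, and their difference of 0.13 had an interval from -0.13 to 0.38 (exact permutation p = 0.3).

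The signal peptidase complex has catalytic subunits encoded by Sec11a and Sec11c and the accessory subunits Spcs1, Spcs2 and Spcs3. None of the 5 genes passed the test in either fit, 0 had an unadjusted p under 0.05, and in all 5 the groups overlapped. Of all tested genes, 3.88% were called lower and 2.79% higher, and 8.91% and 8.96% with the block. At that unadjusted p 9.45% were lower and 9.34% higher, and 11.7% and 13.9% showed no overlap. With so few genes, counts of 0 are close to these shares and do not set the complex apart. All 5 log2 fold changes were below 0, as were 44.5% of those of all tested genes. Sec11a had the lowest p of the group. Its values were 10.82, 10.82 and 10.72 in controls and 10.73, 10.55 and 10.63 in knockdowns (log2 fold change -0.15, 95% confidence interval -0.31 to 0.01, adjusted p = 0.284). Spcs1 had the lowest fold change (-0.17, adjusted p = 0.335). Spcs2 had the smallest, with 12.21, 12.10 and 12.02 against 12.18, 11.96 and 12.04 (log2 fold change -0.05, adjusted p = 0.815), and replicate 1 was the highest array of each group. Spcs3 and Sec11c had log2 fold changes of -0.08 and -0.07.

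The oligosaccharyltransferase joins the catalytic subunit Stt3a, which works beside the channel, or Stt3b, which also acts on sites that were passed over, to a shared core of Rpn1, Rpn2, Ddost and Dad1. Ostc is a subunit of the Stt3a form, and Tusc3 or Magt1, thiol oxidoreductases, belong to the Stt3b form. None of the 9 genes passed 10% FDR without the block, 7 were lower at an unadjusted p under 0.05 (9.45% of all tested genes), and 4 passed with the block (8.91%). All 9 listed genes had log2 fold changes below 0, in 7 no knockdown array reached the lowest control array, and 8 were lower in all 3 pairs. The shares of all tested genes were 44.5%, 11.7% and 21.3%.

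Magt1 had the lowest fold change of the enzyme. Its log2 values were 10.26, 10.10 and 10.17 in controls and 10.07, 9.70 and 9.89 in knockdowns (log2 fold change -0.29, SE 0.0985, adjusted p = 0.163, with the block 0.0330). Tusc3 had 12.12, 12.10 and 11.92 against 11.85, 11.74 and 11.86 (log2 fold change -0.23, adjusted p = 0.142, with the block 0.0793). For Tusc3 control replicate 3 came closest to the knockdown arrays. Ddost had 13.42, 13.28 and 13.18 against 13.17, 12.98 and 12.97 (log2 fold change -0.26, adjusted p = 0.154, with the block 0.0309). Dad1 had 13.06, 13.01 and 12.95 against 12.93, 12.83 and 12.75 (log2 fold change -0.17, adjusted p = 0.235, with the block 0.0868). In both, replicate 1 was the highest array of its group, and each knockdown array was below its own control.

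Rpn1, Rpn2 and Stt3b had log2 fold changes of -0.13, -0.15 and -0.14 without overlap, and did not pass in either fit (adjusted p = 0.258, 0.230 and 0.266). Stt3a and Ostc changed least. Stt3a had 13.32, 13.29 and 13.23 against 13.31, 13.23 and 13.19 (log2 fold change -0.04, 95% confidence interval -0.18 to 0.10). Ostc had 12.57, 12.58 and 12.49 against 12.50, 12.48 and 12.56 (log2 fold change -0.03, 95% confidence interval -0.17 to 0.11). The groups of these 2 genes overlapped.

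**Figure D4:**
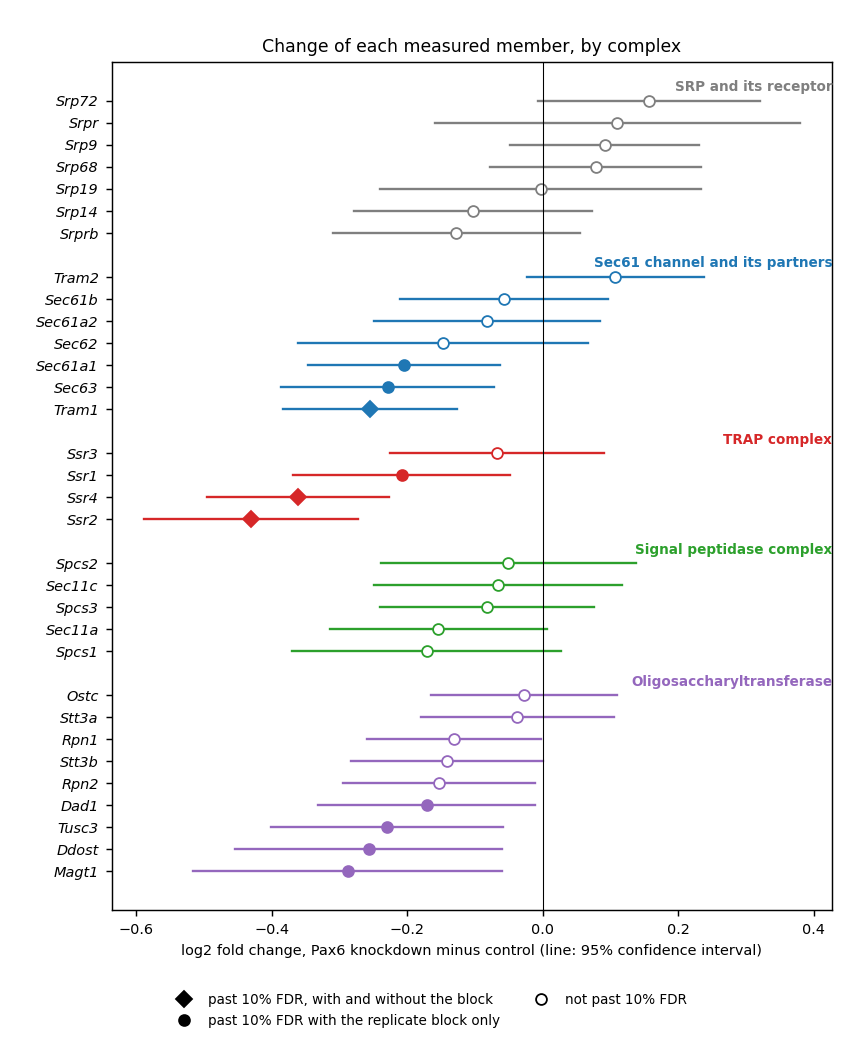
Log2 fold change (horizontal axis, knockdown minus control) of each of the 32 measured members with its 95% confidence interval, by complex. Diamonds passed 10% FDR with and without the replicate block (Ssr2, Ssr4, Tram1), filled circles only with the block (7 genes), and open circles in neither fit (22 genes).

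Genes of secretory pathway proteins can carry ER stress elements, which the factors ATF6 and XBP1 bind together with the CCAAT-binding factor NF-Y. Promoter windows of 250 bases before to 50 bases after the start were in the RefSeq table for 25 of the 34 genes (26 windows), and of the 3 genes that fell, Ssr2, Ssr4 and Tram1, only for Ssr4. Both strands were searched for the element ERSE (CCAAT, any 9 bases, CCACG), ERSE-II (ATTGG, any base, CCACG), UPRE (TGACGTGG) and the CCAAT box (CCAAT) that the first of these contains. The first 3 were found in 0 of these 25 members, and they occur in 0.119%, 0.0365% and 0.676% of the 32851 promoters in the table. The CCAAT box was in 14 of the 26 windows, beside 37.4% of all promoters. The windows of Ddost, at chr4:138304488-138304787 on the plus strand, and of Magt1, at chrX:106011753-106012052 on the minus strand, held 3 and 4 matches, shown in capitals (CCAAT or its reverse complement ATTGG) on the strand of the gene. They are shown as the members with the lowest fold changes of the oligosaccharyltransferase.
Ddost: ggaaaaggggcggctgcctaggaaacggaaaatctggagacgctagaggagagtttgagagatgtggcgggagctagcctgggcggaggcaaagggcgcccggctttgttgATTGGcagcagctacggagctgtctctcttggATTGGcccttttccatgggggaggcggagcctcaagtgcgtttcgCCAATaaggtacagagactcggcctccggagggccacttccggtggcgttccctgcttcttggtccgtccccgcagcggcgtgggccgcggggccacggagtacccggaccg
Magt1: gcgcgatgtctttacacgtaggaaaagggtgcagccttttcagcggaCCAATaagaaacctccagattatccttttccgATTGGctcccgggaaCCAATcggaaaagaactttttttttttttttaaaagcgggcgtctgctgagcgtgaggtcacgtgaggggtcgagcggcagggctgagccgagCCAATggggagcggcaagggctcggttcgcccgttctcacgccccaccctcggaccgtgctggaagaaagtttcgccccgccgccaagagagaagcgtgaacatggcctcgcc
The Ssr4 window printed above held no match. The match is a description of the letters and shows no binding.

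For 5 pairs of paralogues the change of the second gene was subtracted from that of the first on each array, and the groups were compared by an exact two-sided permutation test, for which 3 against 3 arrays cannot give a p below 0.1. The intervals are from a t distribution with the pooled SD of both groups and not from that test. Tram1 and Tram2 differed most. Tram2, whose product is known from collagen-producing cells, had values of 9.80, 9.78 and 9.78 in controls and 9.94, 9.86 and 9.88 in knockdowns (log2 fold change 0.11, adjusted p = 0.366), so that its knockdown arrays lay above the controls while those of Tram1 lay below. The difference of changes was -0.36 (95% confidence interval -0.44 to -0.29; exact p = 0.1, adjusted over the 5 pairs 0.25).

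Stt3a minus Stt3b gave 0.10 (95% confidence interval 0.02 to 0.18; exact p = 0.1, adjusted 0.25), with no overlap between groups. The other 3 pairs overlapped. Sec61a1 minus Sec61a2 gave -0.12 (interval -0.34 to 0.09; exact p = 0.3, adjusted 0.375) and Sec11a minus Sec11c gave -0.09 (interval -0.27 to 0.09; exact p = 0.3, adjusted 0.375). Tusc3 minus Magt1 gave 0.06 (interval -0.24 to 0.35; exact p = 0.7), an interval wide enough to hold differences as large as either gene's own change.

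**Figure D5:**
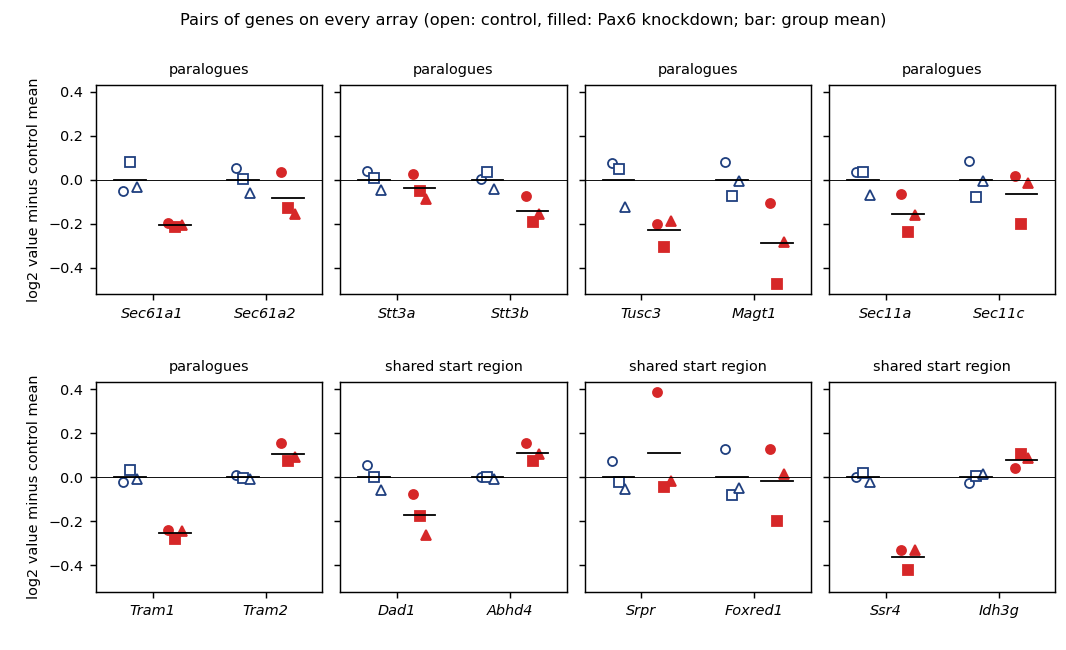
Log2 value minus the control mean (vertical axis) on every array for the 5 pairs of paralogues and the 3 pairs that share a start region; open symbols are control arrays, filled symbols Pax6 knockdown arrays, shapes give the replicate number and bars the group means. Tram1 and Tram2, Ssr4 and Idh3g, and Dad1 and Abhd4 lie on opposite sides of 0 in the knockdown.

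Genes that act before and after these complexes were taken from lists written by function, and those named here were chosen after their values were seen. The sugar tree is assembled on dolichol by 25 listed genes, of which 24 were tested. In this list 2 fell, the mannosyltransferase gene Alg1 (log2 fold change -0.33, adjusted p = 0.0391) and Mpdu1, needed to use the dolichol-linked sugars (-0.31, adjusted p = 0.0909), and none rose. With the block 8 of the 24 were lower and 0 higher, beside 8.91% and 8.96% of all tested genes, and the median was -0.11. After transfer, glucose trimming and the lectins calnexin and calreticulin monitor folding. All 8 of these genes had knockdown arrays below the controls without overlap, an arrangement seen in 11.7% of all tested genes. The median was -0.23, and 2 fell, both subunits of glucosidase II: Prkcsh (-0.36, adjusted p = 0.0310) and Ganab (-0.24, adjusted p = 0.0826). Across all tested genes 3.88% were called lower. With the block 5 of the 8 were lower, beside 8.91%.

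Other routes into the membrane were listed as well. Across all tested genes, 3.88% were called lower, 9.45% were lower at an unadjusted p under 0.05 and 8.91% were lower with the block. The ER membrane protein complex, an insertase, had 0 of 9 tested genes called, 2 lower at an unadjusted p under 0.05 and 3 lower with the block (median -0.17). The tail-anchored route had 0 of 6 in either fit or at that unadjusted p (median 0.02). The GPI transamidase, which attaches lipid anchors, had 0 of 5 called, 2 lower unadjusted and 1 lower with the block (median -0.11). Of the small or alternative subunits of the complexes above, 3 were tested and gave none by any of these (median -0.09). These were Ost4, Tmem258 and Krtcap2, all of the oligosaccharyltransferase but outside its 9 listed genes. Their log2 fold changes were -0.15, -0.09 and 0.05, and only Ost4 showed no overlap between groups. Of 11 tested transcription factors and sensors of the ER stress response, Ddit3 (CHOP) rose (log2 fold change 0.30, adjusted p = 0.0387) and Atf6b fell (-0.26, adjusted p = 0.0741). Xbp1 had a log2 fold change of -0.04 (adjusted p = 0.831), and the median of the 11 was 0.02. In 4 of the 11 (Ddit3, Atf6, Ern1 and Creb3l1) every knockdown array lay above every control. In 2 (Atf6b and Eif2ak3) every knockdown array lay below. These arrangements occurred in 13.9% and 11.7% of all tested genes. At an unadjusted p under 0.05, 3 were higher and 2 lower, beside 9.34% and 9.45% of all tested genes. Without the block 3.88% of all tested genes were called lower and 2.79% higher. With the block 2 of the 11 were lower and 1 was higher, beside 8.91% and 8.96%.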

How the data were processed

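Total RNA (200 ng per sample) was labelled and hybridised to Affymetrix whole-transcript mouse gene arrays, 3 per group. The authors deposited log2 values per probe set after RMA background correction and quantile normalisation and stated no software versions, annotation build or height of the low-value filter in the sources used here. Quantile normalisation hides a change in total RNA per cell, and RMA compresses small signals. The table held 35556 probe sets, with array medians of 7.49 to 7.59. Precision is limited by the number of arrays.

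Gene names came from the platform annotation (21789 with 1 symbol, 1621 with several, 12146 with none), and 21698 identifiers were found in the RefSeq table of GRCm38.p6. Probe sets with 1 symbol were used, and the one with the highest mean was kept for each gene. Genes above each array's median on at least 3 of 6 arrays were tested with limma 3.58.1 in R 4.3.3 (lmFit, eBayes, two-sided, Benjamini-Hochberg, 10% FDR). The script was tested on simulated data. SciPy 1.17.1 gave the exact permutation tests and the t quantile for the intervals of gene pairs.

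The study's methods call the samples biological replicates, and all are of 1 cell line, so p-values measure the spread between transfected cultures. Deviations of arrays with the same replicate number correlated at 0.574, 0.323 and 0.230 (control 3 with knockdown 2 at 0.178). On the basis of these correlations the replicate number served as the block in an alternative fit, since no label names a batch. The main fit and the permutation tests did not use the pairing. Named members are those past 10% FDR and, per complex, those with the lowest p and the smallest change; members called with the block were added. Members and lists were chosen with earlier results of these data known. Alternatives were the block, leaving out each array, other filters, centring, a second quantile normalisation, mean of probe sets, a mean-variance trend and array weights.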

Additional observations from a re-analysis of the deposited data

How the results depend on the processing

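The count of genes called lower among the 32 members was 3, where 3.88% of all tested genes were called lower. It became 10 with the replicate block (8.91% of all), 9 with a filter at the 75th percentile of each array (8.64%), 10 after a second quantile normalisation (6.85%), 10 with a mean-variance trend (5.30%) and 15 with array weights (14.0%). It was 2 with no low-value filter (0.888%), where Tram1 lost its call. When 1 array was left out it ranged from 0 to 4, beside 0.376% to 4.07% of all tested genes. Over the same settings, 0 members were called higher, except Srp72 and Tram2, 2 genes, with array weights. For all tested genes the 762 calls became 2042 with the replicate block, 245 with no low-value filter, 1383 after the second quantile normalisation and 4239 with array weights, and 51 to 1285 when 1 array was left out. The median log2 fold change of the members stayed below 0 in all settings, at -0.157 to -0.0681 when 1 array was left out, the latter without knockdown replicate 2. The log2 fold change of Pax6 was -0.418 to -0.315 with 1 array left out, and it missed 10% FDR without control replicate 1, 2 or 3 or knockdown replicate 3. Signs turned only in genes with small changes. Srp19 gave 0.0014 after array centring, 0.00063 after the second quantile normalisation, 0.085 with array weights and -0.089 to 0.084 with 1 array left out. Array weights gave 0.013 for Sec61b, 0.0099 for Ssr3 and 0.026 for Ostc. With 1 array left out, Spcs2 ranged from -0.113 to 0.00031, Srpr from -0.031 to 0.187, Sec11c from -0.108 to 0.0011 and the difference Tusc3 minus Magt1 from -0.0015 to 0.134. The cause of these shifts was not tested. The weights were estimated with incomplete convergence, between 0.313 and 5.38 per array. Apart from the counts given with it, the block changed no call reported here. The exact tests of gene pairs could not reach 0.05 with 3 arrays per group.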
